A study of Rattus norvegicus with 12 samples.

Results

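The 75 cytochrome P450 genes described here are those whose gene name on a rat expression array consists of Cyp, a family number, a subfamily letter and a gene number, without Cyp7a1, Cyp7b1, Cyp8b1 and Cyp27a1, which serve bile acid synthesis. They were 75 of 36172 gene names on the array and were read by 101 probes. Family 1 had 3 members, family 2 had 34, family 3 had 8, family 4 had 15, and 15 belonged to other families. Expression was measured in 4 groups of 3 arrays each. The LN111, LN511 and Mat groups are small hepatocytes, progenitor-like cells of the adult rat liver, at passage 2 and collected 3 h after plating on laminin-111, laminin-511 or Matrigel. The MH group is mature hepatocytes taken directly from fresh livers, the control of the study. All cells came from F344 rats that carry DPPIV. The small hepatocytes had been obtained by collagenase perfusion, sorted with magnetic beads for CD44 on day 9 and kept on Matrigel, and their serum-free medium held 10 ng/mL EGF, 10 mM nicotinamide, dexamethasone and insulin-transferrin-selenium. The labels give neither the sex nor the age of the rats. Whether the replicates were separate rats or separate cultures is also unstated, so the p-values measure only how far these arrays spread, part of which may be technical.

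P450 enzymes are haem proteins that insert oxygen into their substrates, and most receive electrons from the reductase Por. Families 1 to 3 are known mainly for the oxidation of drugs and other foreign compounds, family 4 for that of fatty acids and eicosanoids, and the other families for that of steroids, retinoids and vitamin D. Mature hepatocytes are the main site of the drug-oxidising forms, and several of these are known to depend on liver-enriched transcription factors and to fall when hepatocytes are placed in culture.

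A level is given below as the log2 of the background-subtracted signal minus the 75th percentile of its array, and a level is compared only with levels of the same probe. A probe was called well above background as the scanner software marked it. The 75th percentile was 1130 to 3090 signal units on the cultured arrays, against 757 to 961 on the MH arrays, and 52.2% to 62.7% of spots were well above background. LN111 replicate 3 was the noisiest array, where repeated probes varied by 8.59% (median coefficient of variation) and 1126 spots were marked as outliers, and Mat replicates 1 and 3 were the closest pair of any group, with a median absolute deviation of 0.17 between their log2 levels. Mat replicates 1 and 2 and all MH arrays shared slide 1, and the other 7 cultured arrays shared slide 2. The summed signal of 8 hepatocyte markers (log2) was 7.53 to 9.24 on the cultured arrays, against 10.23 to 10.59 on the MH arrays. That of 7 cholangiocyte and progenitor markers was 4.16 to 6.61, against -2.20 to -2.10, though their member Cd44 was the sort marker. The MH arrays carried more signal of other liver cells: Kupffer cell and macrophage markers summed to -2.58 to 0.60 on the cultured arrays, against 4.35 to 4.52 on the MH arrays, and 9 of 9 were lower in culture, as were 7 of 7 sinusoidal endothelial markers. Over all genes tested, 42% were lower in culture. Clec4f of Kupffer cells was well above background on 1 cultured array, Lyve1 and Plvap of endothelium on none, and Krt7 and Krt19 of bile ducts on no MH array. Other markers of the same lists did not follow. Cd68 of macrophages and Kdr and Cdh5 of endothelium were well above background on every cultured array, and Epcam on every MH array. The part of these other cells in the P450 differences was not tested. In such bulk samples, fewer cells of a type and less RNA per cell cannot be told apart.

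The comparison of the 9 cultured arrays with the 3 MH arrays asked which P450 genes were lower and which were kept in the cultured small hepatocytes. Cultured and MH cells differed in cell type, sorting, passage and culture at once, and these cannot be told apart. Words such as lost, kept, fell and rose describe a difference from MH, not a change followed in the same cells. Of the 75 members, 56 could be tested, since in 1 or more of the groups a probe exceeded background on each of the 3 arrays. In the limma fit of all 12 arrays, 45 of the 56 were lower in cultured cells, 4 were higher and 7 did not pass an adjusted p of 0.05. Over all 19087 genes tested, 72.7% passed, 42% lower and 30.8% higher. The median difference of the 56 members was -5.22 on the log2 scale, beside -0.18 for all genes. A member detected only in MH had to be lower by the filter, and 12 of the 56 passed it only with the MH arrays, so the count and the median describe the tested members and not all 75. The 9 cultured arrays lay below all 3 MH arrays for 45 members, which is 80.4% of those tested, where 35.3% of all genes did so. For 1 member, Cyp1a1, the 9 cultured arrays lay above all 3 MH arrays, as they did for 22.2% of all genes.

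**Figure D1:**
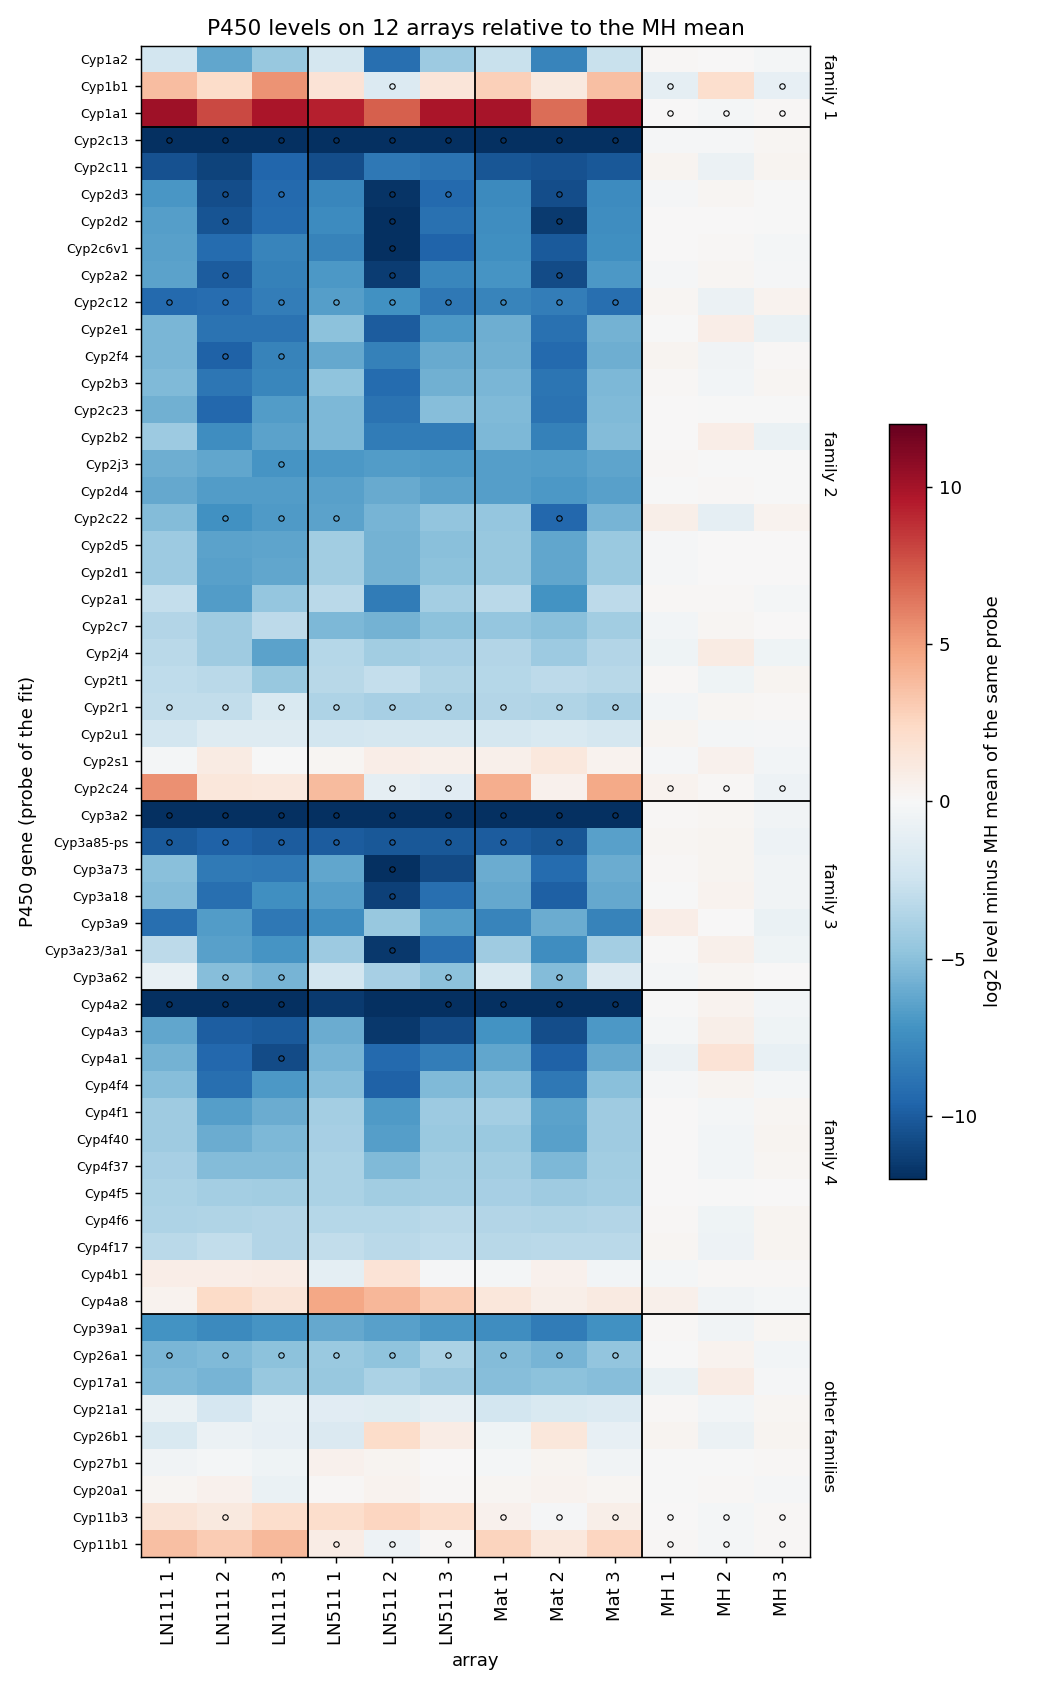
Log2 level of the 56 tested P450 genes (rows, by family) on each array (columns, LN111, LN511, Mat and MH) minus the MH mean of the same probe; open circles mark arrays where the probe was not well above background. Most rows of families 2, 3 and 4 are blue on all 9 cultured arrays, and Cyp1a1 is red on all 9.

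Detection on the cultured arrays divided the members, but it depended on the MH level as well as on the size of the difference. Of the 51 tested members well above background on all MH arrays, 32 were also well above background on all 9 cultured arrays, 14 on some of them and 5 on none. Over all genes detected on the 3 MH arrays, these shares were 86.3%, 11.1% and 2.6%. The 5 members without a cultured signal were Cyp2c13, Cyp2c12, Cyp2r1, Cyp3a2 and Cyp26a1. Of these, Cyp2r1 was dim in MH and had a bound of only 4.46-fold. Cyp2c11, bright in MH, was detected on all 9 cultured arrays although it was 1010-fold lower. Of the 45 lower members, 21 averaged under 1% of their MH mean, 21 averaged 1% to 10%, and 3 averaged over 10%. Those 3 were Cyp2u1 at 25.2%, Cyp21a1 at 36.1% and Cyp4f17 at 10.9%. These shares use the signals as measured, also where no cultured array was well above background. Cyp2r1 and Cyp26a1 were counted at 1% to 10%, but their bounds of 4.46-fold and 8.57-fold allow shares over 10%.

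**Figure D2:**
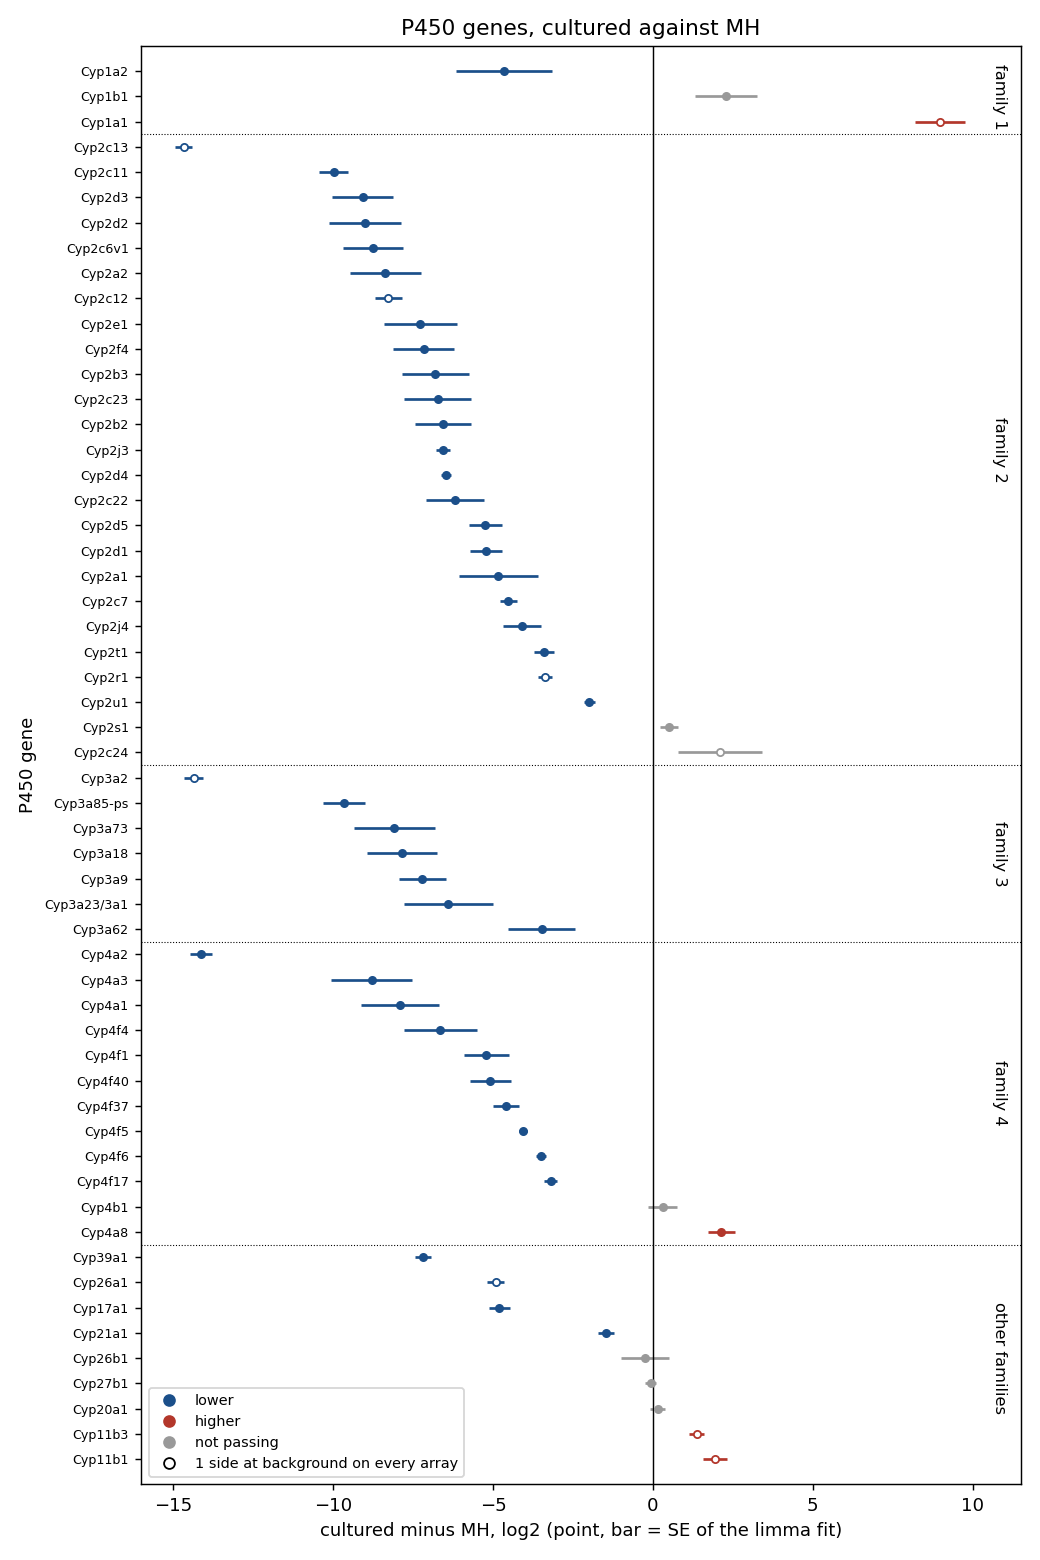
Difference of cultured cells minus MH (log2, point) with the standard error of the limma fit (bar) for the 56 tested P450 genes by family; blue is lower, red higher and grey not passing, and open points had 1 side at background on every array. Families 2, 3 and 4 lie mostly left of 0, from -14.68 for Cyp2c13 upward, and Cyp1a1 lies farthest right at 8.97.

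Family 1, the polycyclic hydrocarbon-inducible P450s, split. Cyp1a1, the classical target of the aryl hydrocarbon receptor Ahr, was higher on every substrate than in MH. Its level was 2.63, 0.36 and 2.25 on LN111, 1.81, -0.33 and 2.26 on LN511, 2.39, -0.80 and 2.41 on Mat, and -7.49, -7.75 and -7.34 in MH. All 9 cultured arrays were well above background and none of the MH arrays was, so the groups did not overlap. The cultured cells were at least 108-fold higher, the mean of the bright group against the lowest signal that counted as well above background on each array of the dim group (limma adjusted p = 2.68e-06). The difference from MH was at least 133-fold on LN111, at least 94-fold on LN511 and at least 99.8-fold on Mat. The 60 bases of the only Cyp1a1 probe, shown because a call of this size rests on it alone, are given in full.
Cyp1a1: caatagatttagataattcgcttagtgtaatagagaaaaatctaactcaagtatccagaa

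Cyp1a2, the constitutive hepatic form of this family, was lower in cultured cells. Its level was 2.78, -1.27 and 0.43 on LN111, 2.85, -4.07 and 0.66 on LN511, 2.29, -2.95 and 2.35 on Mat, and 5.13, 5.07 and 4.81 in MH. All 9 cultured arrays were below the MH arrays, and replicate 2 was the lowest of each substrate. The difference was -4.66 ± 1.51 (SE, limma adjusted p = 0.0176), and a second probe gave -4.57. The call was lost without MH replicate 1 (adjusted p = 0.053) or MH replicate 2 (adjusted p = 0.0527), with quantile scaling (-3.66, adjusted p = 0.0583) and with the slide as a block (-6.74, adjusted p = 0.0575).

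Cyp1b1, the extrahepatic member, had a level of -2.51, -3.96 and -0.75 on LN111, -4.55, -7.81 and -4.73 on LN511, -3.34, -5.00 and -2.58 on Mat, and -7.29, -4.14 and -7.13 in MH. Cultured and MH arrays overlapped through MH replicate 2, the only MH array well above background. The difference did not pass (2.27 ± 0.97, limma adjusted p = 0.0556). It passed without MH replicate 2 (3.49, adjusted p = 0.0134), without replicate 2 of LN111, LN511 or Mat (2.5 to 2.63), and with quantile scaling (2.70, adjusted p = 0.0372), while normexp gave 0.39, and the gene's other probes gave 3.61 and 0.40. The brightest probe without MH replicate 2 was the one that gave 3.61. Against MH, LN111 alone passed (3.78 ± 1.19, adjusted p = 0.0166). In the fit of the cultured arrays alone, the probe that gave 3.61 was the brightest and stood for the gene. By that probe LN111 against LN511 gave 3.73 ± 1.13 and did not pass (adjusted p = 0.0572). That difference between substrates passed with quantile scaling (3.99, adjusted p = 0.0463), unscaled (4.22, adjusted p = 0.0103), with signals raised to background (3.09, adjusted p = 0.0485), without LN111 replicate 2 (4.39, adjusted p = 0.0432) and without the cultured arrays numbered 2 (3.33, adjusted p = 0.0233). The summed stellate cell and fibroblast markers were also highest on LN111, at 5.49 to 6.29, against 0.99 to 3.10 on LN511, 4.15 to 4.83 on Mat and 1.11 to 1.76 in MH, and their part in the Cyp1b1 levels was not tested. Of the 7 markers in that list, 3 were higher in cultured cells than in MH, 1 was lower and 3 did not pass. Over all genes tested, 30.8% were higher and 42% lower.

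The aryl hydrocarbon receptor binds DNA at the core letters GCGTG, and the RefSeq promoter of Cyp1b1 is shown with each match to GCGTG or its reverse complement CACGC in capitals. It is 250 bases before to 50 after the gene's start on GRCr8, chr6:21094315-21094614, plus strand.
Cyp1b1: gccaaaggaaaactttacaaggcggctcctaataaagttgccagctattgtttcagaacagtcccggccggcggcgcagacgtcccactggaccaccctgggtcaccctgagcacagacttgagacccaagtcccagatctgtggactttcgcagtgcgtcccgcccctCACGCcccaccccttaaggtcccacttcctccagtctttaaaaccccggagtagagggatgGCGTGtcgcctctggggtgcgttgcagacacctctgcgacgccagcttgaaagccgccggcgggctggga
The letters occur once on each strand here, and 29.7% of the 33469 promoters in the table hold them on either strand. The windows of Ahrr and Tiparp also hold them, that of Cyp1a2 does not, and that of Cyp1a1 was not analysed here.

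Other genes of the receptor's response were measured in the list of 24 P450 regulators. Ahrr, the repressor that the receptor induces, was higher, with a fitted difference of 3.24 ± 0.68 (limma adjusted p = 0.00154). No MH array and only 1 of 3 LN511 arrays was well above background for Ahrr, so this difference is not a fold. Tiparp, another target, rose by 1.90 ± 0.33 (adjusted p = 0.00044). Ahr itself had a difference of -0.17 ± 0.27 and did not pass (adjusted p = 0.587), and its partner Arnt fell by 1.01 on the log2 scale.

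Family 2, the largest P450 family of rat liver, was lower nearly throughout: 23 of 25 tested members fell, none rose, and the median difference was -6.57. The largest differences of the family were those of Cyp2c13 and Cyp2c11, whose products hydroxylate steroids. Cyp2c13, a male-predominant form of adult rat liver, had a level of -7.97, -6.98 and -7.85 on LN111, -6.89, -7.89 and -7.81 on LN511, -8.78, -8.38 and -8.25 on Mat, and 6.71, 6.69 and 7.05 in MH. No cultured array was well above background, and the cultured cells were at least 7760-fold lower (limma adjusted p = 2.6e-10). Cyp2c12, the female-predominant form, was at 1.05, 0.09 and 1.18 in MH and on no cultured array well above background, at least 118-fold lower in cultured cells (adjusted p = 5.61e-08). Both forms were well above background on all MH arrays, as were the male-predominant Cyp2c11 and Cyp3a2.

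Cyp2c11 kept a low signal on all 9 cultured arrays. Its level was -4.01 at the lowest, -3.16 at the median and -1.48 at the highest cultured array, against 7.37, 6.40 and 7.42 in MH. Every cultured array was far below the MH arrays, the difference was -9.98 ± 0.45 (limma adjusted p = 2.53e-08), and cultured cells held 0.0988% of the MH mean. Cyp2d3, Cyp2d2 and Cyp2c6v1 differed by -9.08 ± 0.96, -9.01 ± 1.13 and -8.76 ± 0.94, and Cyp2a2 by -8.37 ± 1.10. These 4 were well above background on 4 to 8 of the 9 cultured arrays. Cyp2c22 differed by -6.18 ± 0.91 and Cyp2c23, an arachidonic acid epoxygenase, by -6.74 ± 1.04.

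Cyp2e1, the ethanol-inducible form, kept 0.647% of its MH mean on average and differed by -7.27 ± 1.13 (adjusted p = 0.000194). Its cultured levels ran from -3.79 to 1.31, with a median of -0.65, against 6.15, 7.05 and 5.44 in MH. Cyp2b2, a phenobarbital-inducible form whose probe also lists an accession of Cyp2b1, fell by 6.57 on the log2 scale (adjusted p = 6.45e-05), and Cyp2b3 fell by 6.81 (adjusted p = 0.000177). Cyp2r1, a vitamin D 25-hydroxylase, was at least 4.46-fold lower, at -4.24, -3.76 and -3.85 in MH with no cultured array well above background (adjusted p = 3.68e-07).

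**Figure D3:**
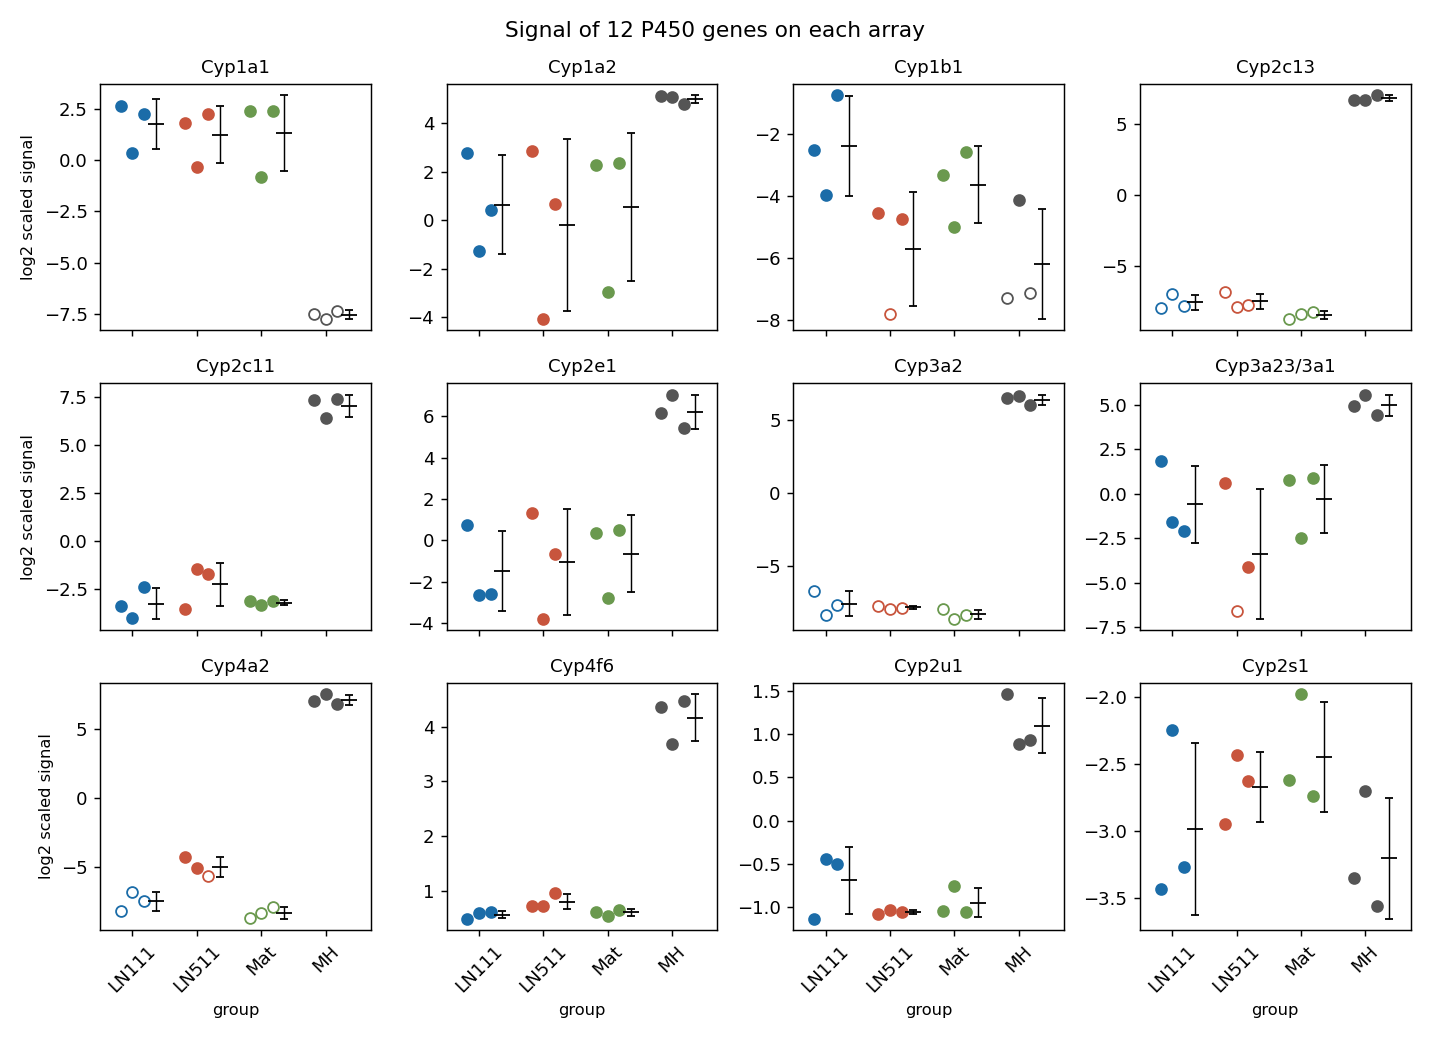
Level (log2 scaled signal) of 12 P450 genes on each array of LN111, LN511, Mat and MH; points are arrays, open where not well above background, and the bar beside them is the mean ± SD of the 3 arrays. Cyp2c13 and Cyp3a2 are open on all 9 cultured arrays, Cyp1a1 is open in MH, and Cyp1a2, Cyp2e1 and Cyp3a23/3a1 spread widely within each substrate.

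The other subfamilies of family 2 differed in how evenly they fell. Cyp2d4, a brain and liver form, lay between -3.58 and -2.76 on all cultured arrays, against 3.26, 3.41 and 3.20 in MH (-6.48 ± 0.15, limma adjusted p = 7.03e-10). Cyp2j3, an arachidonic acid epoxygenase, differed by -6.57 ± 0.22 (adjusted p = 3.85e-09), and Cyp2j4 by -4.10 ± 0.59 (adjusted p = 0.00011). Cyp2a1, a testosterone 7α-hydroxylase, ranged from -5.44 to 0.10 on the cultured arrays, against 3.09, 3.16 and 2.73 in MH (-4.83 ± 1.22, adjusted p = 0.00469). Cyp2u1, a long-chain fatty acid hydroxylase, had the smallest difference of the lower members of this family, at -1.99 ± 0.17 (adjusted p = 2.89e-06), with cultured levels of -1.13 to -0.44, against 1.46, 0.89 and 0.93 in MH.

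Cyp2s1 and Cyp2c24 were the family 2 members that did not pass. Cyp2s1, an epithelial form, was at -3.43, -2.25 and -3.27 on LN111, -2.95, -2.43 and -2.63 on LN511, -2.62, -1.98 and -2.74 on Mat, and -3.35, -2.70 and -3.56 in MH. These levels overlapped, and the difference was 0.50 ± 0.28 (limma adjusted p = 0.133). Cyp2c24 was well above background on 7 of 9 cultured arrays and on none of the MH arrays (2.10 ± 1.32, adjusted p = 0.173), with cultured levels of -7.76 to -0.93.

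The probes of Cyp2d1 and Cyp2d5 shared 56 of 58 overlapping bases, and both gave nearly the same differences, -5.23 ± 0.51 and -5.24 ± 0.52. The values of the pair cannot be told apart, and the sequences are shown with the bases that differ within the overlap in capitals.
Cyp2d1: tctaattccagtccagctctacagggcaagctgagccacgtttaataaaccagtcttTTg
Cyp2d5: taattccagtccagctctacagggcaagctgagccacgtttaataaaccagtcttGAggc
Likewise 50 of 51 bases were shared by Cyp4f37 and Cyp4f5, whose differences were -4.61 ± 0.41 and -4.06 ± 0.12.
Cyp4f37: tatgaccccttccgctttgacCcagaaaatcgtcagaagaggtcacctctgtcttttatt
Cyp4f5: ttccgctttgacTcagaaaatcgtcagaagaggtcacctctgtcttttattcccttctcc

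Cyp2c7, a retinoid-oxidising form, gave unlike answers by probe. The probe that stood for the gene was well above background on all arrays, with levels of -1.28, -2.02 and -0.83 on LN111, -3.12, -3.36 and -2.66 on LN511, -2.34, -2.78 and -1.95 on Mat, and 1.97, 2.49 and 2.34 in MH. Its difference was -4.53 ± 0.27 (limma adjusted p = 1.51e-07), and cultured cells held 4.33% of the MH mean. The gene's 3 other usable probes had fitted differences of -14.79, -13.97 and -14.09, and none of them was well above background on any cultured array. Within slide 1, where another probe was the brightest, the gene's difference was -15.74. By those probes Cyp2c7 would count among the members without a cultured signal. The 2 sequences shown are the probe that stood for the gene and the probe with the largest fall.
Cyp2c7 A_44_P1119221: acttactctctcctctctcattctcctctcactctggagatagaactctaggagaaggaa
Cyp2c7 A_44_P1101239: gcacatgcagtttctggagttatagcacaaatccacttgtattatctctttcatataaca

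Family 3, the CYP3A enzymes that oxidise many drugs and steroids, was lower in full: 7 of 7 tested members fell, with a median difference of -7.84. Cyp3a2, the male-predominant adult form, had a level of -6.74, -8.42 and -7.70 on LN111, -7.76, -7.96 and -7.91 on LN511, -8.02, -8.65 and -8.38 on Mat, and 6.54, 6.69 and 6.03 in MH. No cultured array was well above background, and cultured cells were at least 5900-fold lower (limma adjusted p = 5.1e-10). Cyp3a23/3a1, the form inducible by dexamethasone and other pregnane X receptor ligands, was at 1.86, -1.59 and -2.09 on LN111, 0.58, -6.61 and -4.12 on LN511, 0.74, -2.51 and 0.90 on Mat, and 4.91, 5.57 and 4.42 in MH. All cultured arrays were below the MH arrays, but they spread over 8.48 log2 units, and the difference was -6.39 ± 1.39 (adjusted p = 0.0019).

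Cyp3a18 and Cyp3a73 spread in the same way, with differences of -7.84 ± 1.10 (limma adjusted p = 9.28e-05) and -8.09 ± 1.27 (adjusted p = 0.000213). Cyp3a9 ran the other way across replicates: its cultured levels were -5.60, -3.23 and -5.06 on LN111, -3.94, -1.01 and -3.13 on LN511, and -4.45, -2.48 and -4.54 on Mat, against 4.29, 3.54 and 2.65 in MH. Replicate 2 was its highest array on each substrate, and its difference was -7.21 ± 0.72 (adjusted p = 7.71e-06). Cyp3a62 had the smallest difference of the family, at -3.48 ± 1.06 (adjusted p = 0.0125), and was well above background on 5 of 9 cultured arrays, and with the slide as a block its call was lost (-4.88, adjusted p = 0.051). Cyp3a85-ps, a pseudogene by its name, was well above background on 1 cultured array, Mat replicate 3, and on all MH arrays (-9.65 ± 0.65, adjusted p = 4.2e-07).

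Family 4, the fatty acid ω-hydroxylases, had 10 lower members of 12 tested, 1 higher and 1 that did not pass, with a median difference of -4.85. The Cyp4a genes are targets of the peroxisome proliferator receptor Ppara. Cyp4a2 had a level of -8.20, -6.87 and -7.51 on LN111, -4.28, -5.08 and -5.71 on LN511, -8.77, -8.37 and -7.94 on Mat, and 7.08, 7.56 and 6.84 in MH. The only cultured arrays well above background were LN511 replicates 1 and 2, and the difference was -14.13 ± 0.34 (limma adjusted p = 7.24e-10), or -13.03 with signals raised to background. Cyp4a3, one of whose accessions belongs to Cyp4a2, differed by -8.80 (adjusted p = 0.000117) and Cyp4a1 by -7.92 (adjusted p = 0.000179). Ppara fell by 3.60 (adjusted p = 0.000204).

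The tested Cyp4f genes, a subfamily known for leukotriene hydroxylation, were lower and were well above background on all 9 cultured arrays, while Cyp4f18 was well above background on no array and was not tested. Cyp4f6 was the steadiest member over the cultured arrays, at 0.50 to 0.96, against 4.35, 3.68 and 4.47 in MH, a difference of -3.50 ± 0.16 (limma adjusted p = 2.27e-08). Cyp4f17 was at -3.61 to -3.09, against 0.13, -0.72 and 0.26 in MH (-3.20 ± 0.19, adjusted p = 1.89e-07). Cyp4f4 was at -4.87 to -0.18, against 4.75, 5.20 and 4.60 in MH (-6.65 ± 1.15, adjusted p = 0.000415), and Cyp4f1 fell by 5.21 (adjusted p = 6.46e-05). Cyp4b1, a form best known from lung, was at 0.42, 0.42 and 0.46 on LN111, -1.59, 1.19 and -0.51 on LN511, -0.67, 0.15 and -0.74 on Mat, and -0.61, -0.30 and -0.31 in MH. These levels overlapped (0.31 ± 0.45, adjusted p = 0.554).

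Cyp4a8 was the one higher call of family 4, and its probes disagreed. The brightest probe had a level of 1.18, 3.12 and 2.36 on LN111, 5.46, 4.81 and 3.82 on LN511, 2.17, 1.51 and 1.86 on Mat, and 1.40, 0.37 and 0.57 in MH. Cultured and MH arrays overlapped through LN111 replicate 1 and MH replicate 1, and the difference was 2.14 ± 0.43 (limma adjusted p = 0.00114). Within slide 1 it did not pass (1.06, adjusted p = 0.0614). A second usable probe fell by 4.26 ± 0.30 (adjusted p = 5.89e-07), and the mean of both probes gave -1.06 (adjusted p = 0.00148). The direction for Cyp4a8 therefore depended on the probe, and both are shown.
Cyp4a8 A_64_P040994: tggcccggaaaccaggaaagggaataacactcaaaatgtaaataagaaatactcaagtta
Cyp4a8 A_44_P1105952: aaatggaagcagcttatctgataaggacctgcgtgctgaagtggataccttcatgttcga

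**Figure D4:**
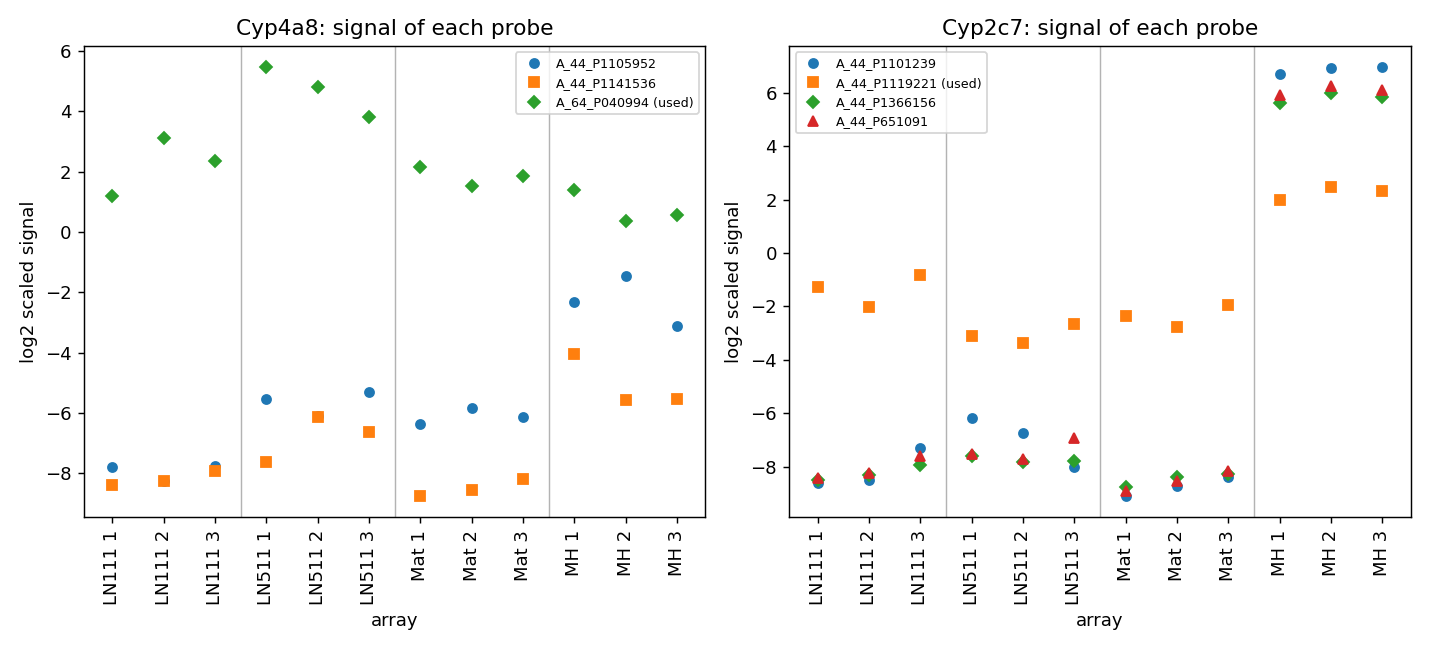
Level (log2 scaled signal) of each probe of Cyp4a8 (left) and Cyp2c7 (right) on each array of LN111, LN511, Mat and MH; the label names the probe that stood for the gene. The brightest Cyp4a8 probe is highest on LN511 while its other probes are highest in MH, and 3 of 4 Cyp2c7 probes lie at -6.19 or below on every cultured array.

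The other families held 3 of the 7 members that did not pass. Of their 9 tested members, 4 fell, 2 rose and 3 did not pass, with a median of -0.25, beside 42% lower, 30.8% higher and a median of -0.18 over all genes. These shares were near those of all genes. Cyp39a1, an oxysterol 7α-hydroxylase of liver, had cultured levels of -5.90 to -3.69, against 2.60, 2.05 and 2.69 in MH (-7.19 ± 0.26, limma adjusted p = 6.55e-09). A second probe gave -7.28, but it was well above background on no cultured array, so this is not a fold. By that probe Cyp39a1 would count among the members without a cultured signal. Cyp17a1, a steroid 17α-hydroxylase, differed by -4.80 ± 0.34 (adjusted p = 5.27e-07). Cyp26a1, which degrades retinoic acid, was at -3.07, -2.60 and -3.36 in MH and not well above background on any cultured array, at least 8.57-fold lower in cultured cells (adjusted p = 6.58e-08). Cyp21a1, the steroid 21-hydroxylase, differed by -1.47 ± 0.25 (adjusted p = 0.0004), and its call was lost in unscaled values (-0.43, adjusted p = 0.177).

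Cyp20a1, Cyp27b1 and Cyp26b1 were well above background on all 12 arrays and did not pass. Cyp20a1, an orphan P450, was at -1.63 to -0.28 on the cultured arrays, against -0.82, -0.66 and -0.89 in MH (0.15 ± 0.24, limma adjusted p = 0.582). Cyp27b1, the vitamin D 1α-hydroxylase, was at -5.05 to -3.96, against -4.59, -4.60 and -4.37 in MH (-0.06 ± 0.17, adjusted p = 0.758). Cyp26b1, a retinoic acid hydroxylase, was at -4.19 to -0.14, against -2.05, -3.04 and -2.05 in MH (-0.25 ± 0.75, adjusted p = 0.775). The signs of these last 2 differences changed under unscaled values, and none of the 3 tests shows that the levels were equal.

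The 2 higher calls of the other families, Cyp11b1 and Cyp11b3, are genes of adrenal steroid synthesis and were near background. Cyp11b1 was at -3.55, -4.11 and -3.31 on LN111, -6.28, -7.85 and -7.05 on LN511, -4.52, -5.94 and -4.66 on Mat, and -7.08, -7.47 and -7.06 in MH, well above background on the LN111 and Mat arrays only. Its difference was 1.95 ± 0.37 (limma adjusted p = 0.000721), at least 1.04-fold, which normexp turned to -0.03 (adjusted p = 0.899). Cyp11b3 was at -7.48 to -4.75 on the cultured arrays, 5 of which were well above background, against -7.23, -7.54 and -7.12 in MH (1.37 ± 0.24, adjusted p = 0.000406), for which no bound above 1 could be given and which normexp turned to -0.45 (adjusted p = 0.0297). With the slide as a block neither passed, at 1.51 for Cyp11b1 (adjusted p = 0.0785) and 0.97 for Cyp11b3 (adjusted p = 0.0721). Star, the steroidogenic acute regulatory protein, was at -2.57, -3.86 and -1.41 on LN111, -4.53, -6.32 and -5.24 on LN511, -3.42, -5.39 and -3.49 on Mat, and -7.20, -7.49 and -7.06 in MH. Star belongs to a list of 3 markers of steroidogenic tissue. Of these, Hsd3b1 was well above background on every cultured array and on 1 MH array. Nr5a1 was well above background on LN111 replicate 1 only and could not be tested. The relation of these genes to Cyp11b1 was not tested.

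The 19 members that could not be tested had no probe well above background on all 3 arrays of any group. Of these, 12 were well above background on no array, among them Cyp2j10, Cyp2j16 and Cyp4v3, and the other 7 on some. They included Cyp11a1 (3 cultured arrays), Cyp19a1 (2 cultured arrays and 1 MH array), Cyp46a1 (1 cultured array) and Cyp2b21 (2 MH arrays and no cultured array). Cyp3a71-ps was well above background on 2 cultured and 2 MH arrays.

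The genes that serve P450 function were also mostly lower. Of 22 genes for redox partners and haem supply, 19 were lower, 2 were higher and 1 did not pass, with a median of -2.0. Over all genes tested, 42% were lower and 30.8% higher, with a median of -0.18. The reductase Por fell by 1.55 (limma adjusted p = 0.000298), cytochrome b5 (Cyb5a) differed by -3.51 (adjusted p = 1.01e-06) and Alas1, the rate-limiting enzyme of haem synthesis in liver, by -3.58 (adjusted p = 1.27e-06). The haem-degrading Hmox1 rose by 3.07 (adjusted p = 7.09e-06) and Cyb5r1 by 0.71 (adjusted p = 0.0195). Of 23 tested P450 regulators, 18 were lower, 2 were higher and 3 did not pass, with a median of -2.33, beside the same all-gene values. Nr1i3 (CAR), the xenobiotic receptor of the Cyp2b genes, differed by -6.33 (adjusted p = 7.15e-07), Nr1i2 (PXR), that of the Cyp3a genes, by -3.33 (adjusted p = 1.12e-05), and Hnf4a, a broad hepatocyte regulator, by -1.88 (adjusted p = 0.000277).

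The cultured arrays differed among themselves in the P450 genes, and replicate 2 stood lowest. The median of the 56 members relative to their MH mean was -4.33, -6.47 and -6.27 on LN111 replicates 1 to 3, -4.43, -5.88 and -4.92 on LN511, and -4.57, -6.46 and -4.47 on Mat. For 22 of the 56 members, replicate 2 was the lowest of the 3 arrays on LN111, LN511 and Mat alike, where 12.9% of all genes tested were so ordered. Of the 22, 13 were of family 2, which held 25 of the 56 tested members, and 3 were the 3 members of family 1. The 22 included Cyp1a1, Cyp1a2, Cyp2e1, Cyp2a1, Cyp2c23 and Cyp4f4. On the same arrays the summed hepatocyte markers were 7.90, 8.01 and 7.53 on replicate 2 of LN111, LN511 and Mat. Their other arrays were at 8.07 to 9.24. Single hepatocyte markers were lowest on replicate 2 of each substrate, except that on LN111 Ttr, Tf and Ahsg were lowest on replicate 3, at 6.28, 5.61 and 2.51. The summed cholangiocyte and progenitor markers were highest on replicate 2 of each substrate, at 5.55, 6.61 and 5.93, but single markers differed. Krt19, a keratin of bile ducts, was at 4.24, 4.74 and 4.31 there, against 0.86 to 3.57 on the other arrays. Cldn4 was lowest on replicate 2 of each substrate, at 1.78, 4.12 and 2.23. Epcam and Spp1 were lowest on replicate 2 of LN511 and Mat. The part of these markers in the P450 levels was not tested. With all cultured arrays numbered 2 left out together, 45 members were lower and 5 were higher. Of all 19475 genes tested in that fit, 7976 were lower and 5728 higher.

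**Figure D5:**
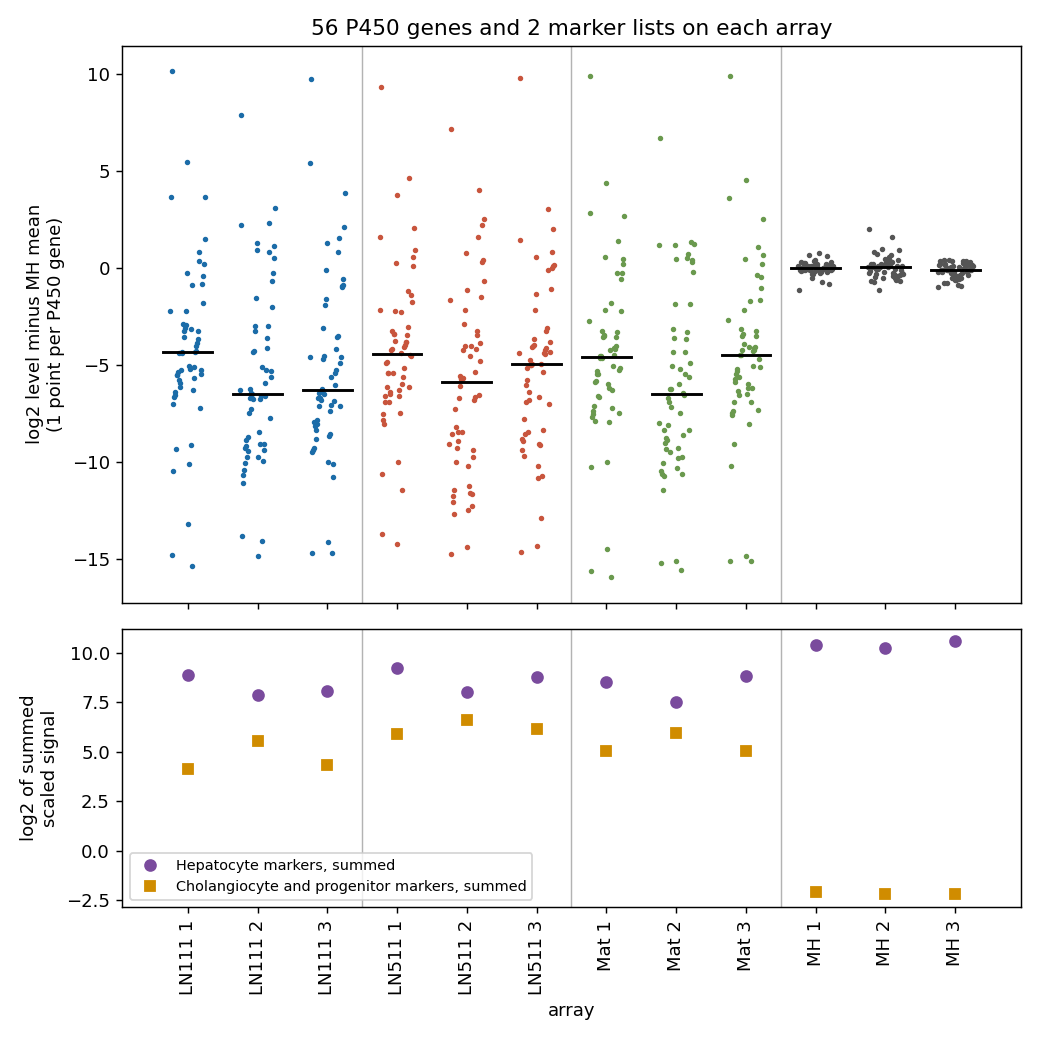
Top, log2 level of the 56 P450 genes (points) minus their MH mean on each array of LN111, LN511, Mat and MH, with the median as a bar; bottom, log2 of the summed signal of hepatocyte markers and of cholangiocyte and progenitor markers. The P450 median is lowest on replicate 2 of each substrate, at -6.47, -5.88 and -6.46, and near 0 in MH.

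The spread over the 9 cultured arrays divided the members. Of the 33 members well above background on all 9, 10 had an SD under 0.5, among them Cyp4f6 (0.13), Cyp4f17 (0.16), Cyp4f5 (0.17), Cyp2d4 (0.27) and Cyp2u1 (0.27). Another 8 had an SD over 1.5, among them Cyp1a2 (2.58), Cyp4a3 (2.19), Cyp2a1 (2.08), Cyp4f4 (1.96) and Cyp2e1 (1.89). Of the 10 steady members 7 were lower, at 1.12% (Cyp2d4) to 36.1% (Cyp21a1) of their MH mean, and 3 did not pass. All 8 variable members were lower, at 0.224% (Cyp4a3) to 3.95% (Cyp1a2).

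Each substrate was also set against MH on its own. On LN111 44 members were lower than in MH and 5 higher, where 66.7% of all genes passed, 39.8% lower and 27% higher. On LN511 45 were lower and 3 higher, where 67.6% passed, 36.4% lower and 31.1% higher. On Mat 43 were lower and 2 higher, where 67.2% passed, 41% lower and 26.2% higher. These comparisons share the 3 MH arrays. The members whose call was not the same on every substrate were Cyp1a2, which passed on LN511 (-5.19, limma adjusted p = 0.0295) and not on LN111 (-4.35, adjusted p = 0.0595) or Mat (-4.44, adjusted p = 0.0551), Cyp3a62, whose -2.89 on Mat did not pass, Cyp1b1, Cyp4a8, Cyp11b1 and Cyp11b3. For Cyp1a2, LN111 against LN511 gave 0.83 and did not pass (adjusted p = 0.816). The Mat arrays of slide 1 set against the MH arrays of the same slide gave 45 lower and 2 higher of 55 tested members. Of all 19041 genes tested there, 7161 were lower and 4657 higher. LN111 or LN511 and slide 2 cannot be told apart in their comparisons with MH except through the Mat arrays of both slides.

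Between substrates, the fit of the 9 cultured arrays tested 44 members among 18057 genes. For LN111 against Mat, 0 of 44 members and 0% of all genes passed, while 3 members (6.82%) and 12.2% of all genes had an unadjusted limma p under 0.05. These were Cyp11b3 (1.27 ± 0.31, adjusted p = 0.324), Cyp2c7 (0.98 ± 0.35, adjusted p = 0.354) and Cyp11b1 (1.39 ± 0.49, adjusted p = 0.354). For LN511 against Mat, 2 members were higher and 1 was lower, where 8.16% of all genes passed, 7.01% higher and 1.15% lower. Cyp4a8 was higher on LN511 by 2.85 ± 0.55 (adjusted p = 0.0186), all 3 LN511 arrays above all 3 Mat arrays by its brightest probe. Cyp11b3 was at least 2.63-fold higher on LN511 than on Mat (adjusted p = 0.0105), and Cyp11b1 was at least 1.62-fold lower (adjusted p = 0.045). With the slide as a block none of the 3 passed, at 2.84 for Cyp4a8 (adjusted p = 0.212), 1.54 for Cyp11b3 (adjusted p = 0.195) and -2.40 for Cyp11b1 (adjusted p = 0.219), and Mat replicate 3 was the only Mat array on the slide of the LN511 arrays. The Cyp4a8 call was also lost without LN511 replicate 1 or 2 or any 1 Mat array (2.47 to 3.01, adjusted p = 0.0553 to 0.0648), and the Cyp11b1 call without any 1 LN111 array, LN511 replicate 2 or 3, or Mat replicate 1 or 3 (-2.03 to -1.62, adjusted p = 0.0551 to 0.17).

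The same-numbered arrays of LN511 and Mat deviated together, and with the replicate number as a block 4 members were lower and 4 higher on LN511 than on Mat, where 3.31% of all genes were lower and 9.97% higher. Cyp4a8, Cyp11b3 and Cyp11b1 passed in this fit too (limma adjusted p = 0.0262, 0.0123 and 0.00492). The others were Cyp3a9 (1.13 ± 0.21, adjusted p = 0.0185) and Cyp39a1 (1.16 ± 0.28, adjusted p = 0.0437), higher on LN511, and Cyp1b1 (-1.86 ± 0.42, adjusted p = 0.0361), Cyp2c6v1 (-1.86 ± 0.46, adjusted p = 0.0453) and Cyp2c7 (-0.69 ± 0.14, adjusted p = 0.0241), lower on LN511. The Cyp1b1 value came from the probe used between substrates, not from the probe used against MH.

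For LN111 against LN511, all on slide 2, 2 members were higher and 1 was lower, where 17.9% of all genes passed, 6.16% higher and 11.8% lower. Cyp11b1 was at least 4.23-fold higher on LN111 than on LN511 (limma adjusted p = 0.00484). Cyp2c7 was higher on LN111 by 1.67 ± 0.35 (adjusted p = 0.0152), by the probe that stood for it, and its other probes were not well above background on either substrate. Cyp4a8 was lower on LN111 by 2.48 ± 0.55 on the log2 scale (adjusted p = 0.0194), and this call did not pass when LN111 replicate 3, LN511 replicate 1 or LN511 replicate 2 was removed (-2.55 to -2.09, adjusted p = 0.0507 to 0.0582). Cyp2c7 was lost without LN511 replicate 2 (adjusted p = 0.0524). Cyp17a1 did not pass (-0.92 ± 0.29, adjusted p = 0.062).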

How the data were processed

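Each of 12 samples was hybridised to 1 Agilent array in a single colour, with 100 ng of RNA labelled per array, per the labels' protocols. The deposited intensity is the processed signal of Agilent Feature Extraction 10.7, per the submitters' processing notes; per the file headers it was background-subtracted and detrended. The authors' deposited value table holds the same intensity on a linear scale without scaling between arrays, with these medians by column: for LN111 61.83, 58.99 and 45.07, for LN511 45.55, 49.01 and 43.58, for Mat 85.54, 90.94 and 57.53, and for MH 27.5, 27.65 and 23.6. No centring was found in it, and a direction does not arise with 1 colour.

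From these intensities levels were computed here as log2 of the signal over the array's own 75th percentile. After removal of control and outlier spots, replicate spots were averaged, which kept 45489 of 45598 probes. The percentile was first taken over probes and then over all 58717 non-control spots. The values reported use the spots, a choice made after the results over probes had been seen, and the closing section says what differs. A gene is a gene name of the files, and its brightest usable probe in each fit stood for it. The names of 84 of the 101 member probes were matched to RefSeq by accession and 16 by symbol. No genome was used, so probe positions are not given.

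The test was limma 3.58.1, two-sided, in R 4.3.3 (lmFit and eBayes), with Benjamini-Hochberg adjustment over all genes tested and 0.05 as the limit. All 12 arrays were fitted together for the contrasts with MH, and the 9 cultured arrays for those between substrates. Errors of differences are standard errors. The fit was tested on simulated data. Alternatives were other background correction, scaling, filters, probe choices, blocks for slide or replicate number, and arrays left out in turn. For LN511 against Mat, deviations from the group means correlated over 0.1 in every same-numbered pair (0.594, 0.756 and 0.156), so those numbers were taken as pairs, on the data alone since the labels do not say so. Signals near background have only a bound, given as "at least". Named members were, in each family, the 5 lowest and 3 highest differences, every member higher or not passing, those on all 9 cultured arrays but not all MH arrays, a list of well-studied P450s and, per substrate pair, the 5 smallest p-values. Cyp2b3, Cyp2b21, Cyp3a71-ps, Cyp4f5, Cyp4f6, Cyp4f18 and Cyp4f37, and the members named for the replicate block, were added after their values were seen. The members and lists were chosen with earlier results of these data known.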

Additional observations from a re-analysis of the deposited data

Results flagged for a closer look

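In the fit of the 9 cultured arrays, 4 of 44 P450 genes differed between substrates by the test of the difference itself, counted over all comparisons together. For LN511 against Mat, and likewise for LN111 against LN511, 4.55% of the 44 were higher and 2.27% lower. For LN111 against Mat 0% passed. Over all genes of that fit, 8.16% passed for LN511 against Mat, 17.9% for LN111 against LN511 and 0% for LN111 against Mat. With the slide as a block, none of the calls for LN511 against Mat passed. Cyp11b1 differed by 3.41 ± 0.49 (SE, limma adjusted p = 0.00484) for LN111 against LN511 and by -2.02 ± 0.49 (adjusted p = 0.045) for LN511 against Mat, and it was well above background on no LN511 array. Cyp11b3 differed by 1.89 ± 0.31 (adjusted p = 0.0105) for LN511 against Mat, and it was well above background on no Mat array. Cyp4a8 differed by 2.85 ± 0.55 (adjusted p = 0.0186) for LN511 against Mat and by -2.48 ± 0.55 (adjusted p = 0.0194) for LN111 against LN511, by the probe that disagreed in direction with the gene's second usable probe against MH. Cyp2c7 differed by 1.67 ± 0.35 (adjusted p = 0.0152) for LN111 against LN511, by the only one of its usable probes that was detected in culture.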

How the results depend on the processing

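Of the 45 lower members, 42 kept their call and direction in every alternative that gave a value, with Cyp1a2, Cyp3a62 and Cyp21a1 as the exceptions; of the 4 higher members only Cyp1a1 did. Requiring detection on all arrays of the fit left 26 lower and 1 higher for cultured against MH, 25 and 1 for LN111, 26 and 1 for LN511 and 26 and 0 for Mat, because fewer members were tested. Among substrates it left 0 lower and 1 higher for LN511 against Mat and 1 higher for LN111 against LN511. With normexp 2 members were higher in cultured cells, 2 on LN111 and 1 on Mat, and LN511 against Mat gave 0 lower and 5 higher. Unscaled values gave 10 higher in cultured cells, 8 on LN111 and 10 on Mat, and 12 lower and 1 higher for LN511 against Mat. Of all 18057 genes, LN511 against Mat gave 10585 lower and 448 higher unscaled, and 163 lower and 3434 higher with normexp. Quantile scaling gave 5 higher on Mat against MH. For cultured against MH, the split of lower and higher calls over all genes was 8010 and 5873 as reported (median -0.18). It was 3083 and 10967 unscaled (median 0.86), 6226 and 7956 with quantile scaling (0.18) and 9795 and 3571 with normexp (-0.4). Signals raised to background gave 2 higher in cultured cells, 1 on Mat, and 0 lower for LN511 against Mat. With no filter, LN511 against Mat gave 0 lower and LN111 against LN511 gave 2 lower. The slide as a block gave 2 higher in cultured cells, 2 on LN111, and 0 lower and 0 higher for LN511 against Mat, and slide 1 alone gave 2 higher.

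Same-numbered cultured arrays of different substrates had correlated deviations (r = 0.09 to 0.76, and -0.03 to 0.06 with MH), and 7 of 9 correlated best with their own number, but except for LN511 against Mat not every pair exceeded 0.1. With the replicate block, 4 were higher on Mat against MH, LN511 against Mat gave 4 lower and 4 higher with no call lost, and LN111 against LN511 gave 3 lower and 5 higher, Cyp1b1 among them (3.73, limma adjusted p = 0.00252). For LN111 against LN511 that block gave 18.3% lower and 8.97% higher over all genes. Leaving out 1 array gave 44 to 47 lower and 4 to 5 higher in cultured cells, 3 to 6 higher on LN111 and 2 to 4 on Mat, 0 to 1 lower and 1 to 3 higher for LN511 against Mat, and 0 to 2 lower and 1 to 3 higher for LN111 against LN511.

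Alternatives chosen after seeing the data were these. Without the cultured arrays numbered 2, 4 were higher on Mat against MH, 1 was higher for LN511 against Mat and 2 were lower for LN111 against LN511. With Mat 1 and 3 as 1 array, LN511 against Mat gave 0 lower and 1 higher. With slide 2 alone, 1 was lower for LN111 against Mat, 0 were higher for LN511 against Mat and 0 were lower for LN111 against LN511. The 75th percentile over probes, fitted before the reported form, gave 45 lower and 5 higher in cultured cells, the fifth being Cyp1b1 (2.42, limma adjusted p = 0.0452), with an all-gene median of -0.04.

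Signs changed for Cyp11b1 with normexp (-0.03 for cultured against MH and 0.08 for LN511 against Mat), Cyp11b3 with normexp and with raised signals (-0.45 each), and Cyp4a8 with the mean of probes (-1.06). They also changed for Cyp26b1 unscaled (0.79), with the slide block (0.86), in slide 1 (0.41) and without LN511 replicate 1 (-0.58 to 0.11 with any 1 array left out), and for Cyp27b1 unscaled (0.98), with the slide block (0.32), in slide 1 (0.06), without MH replicate 3 (-0.13 to 0.01 with any 1 array left out) and over probes (0.08). Without the arrays numbered 2, Cyp20a1 was at 0 and Cyp4b1 at -0.03, and unscaled Cyp17a1 was at -0.28 for LN511 against Mat. The causes were not tested. Members near background have only bounds, and 3 arrays a group limit the precision.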
